A study of Mus musculus with 6 samples.

Results

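The regions described here are H3K27ac peaks whose centre lay in an intron less than 10 kb from the nearest transcription start site (TSS), called near-intron peaks below. H3K27ac was profiled by ChIP-seq in quadriceps of mice described as wild-type male C57BL/6J. Each group had 2 H3K27ac libraries plus 1 input, for which the sample labels give another strain name. Whether the inputs came from another strain was not tested. Control mice were sedentary, and detrained mice ran on wheels for 4 weeks from 8 weeks of age and were rested for 72 h before harvest. A single quadriceps of 1 animal went into each H3K27ac library. The mm10 peak list of the control mice held 8454 near-intron peaks among 46988 peaks (18%), and that of the detrained mice held 7439 among 40721 (18.3%). Of these, 4210 formed near-intron pairs, in which a control and a detrained near-intron peak overlapped one to one and covered at least 50% of each other. All shared peaks together made 26432 such pairs. The annotation column that would mark repeats was empty in every row, so no peak was left out as a repeat, and 591 of the near-intron pairs (14%) were centred in sequence that the reference masks as repeats.

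H3K27ac is laid down by acetyltransferases such as p300 and CBP and marks active promoters and enhancers. Introns near a TSS, above all the first, hold many of the elements that tune transcription in muscle, among them sites for MEF2, for the myogenic E-box factors and for TEAD proteins. The mark also spreads from an active promoter into the first intron, so a peak centred in an intron can be the downstream flank of the promoter or an element of its own.

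The H3K27ac libraries, named C2 and C3 for control and Ex1 and Ex2 for detrained mice, held 20805019 to 22400894 tags. The inputs held 10812470 tags in control and 21298438 in detrained mice. Of 10 genes fixed as markers of muscle fibres, 9 had a peak in each list, and their summed signal was 8237 to 10533 tags per 10000000 library tags in control and 9760 to 10059 in detrained libraries. Of 6 genes of liver, brain and pancreas, 2 had a peak in control and 3 in detrained mice, with 399 to 460 tags. Summed signal at 5 fibroblast genes was 3283 to 3417 tags in control and 4009 to 4020 in detrained libraries, at 4 smooth muscle and pericyte genes 870 to 946 against 1114 to 1191, and at 6 immune genes 184 to 228 against 292 to 354. At 9 endothelial genes the groups overlapped, with 4493 to 5544 tags in control and 4683 to 6365 in detrained libraries. Signal at 4 adipocyte genes was 273 to 283 tags against 314 to 377, at the satellite cell gene Pax7 104 tags in both control libraries against 160 to 172, and at 3 Schwann cell genes 90.7 to 96.1 against 93.3 to 121. These sums hold listed peaks only, so differing peak calls enter them. Immune genes with a peak were 4 in control and 5 in detrained mice, and adipocyte genes 2 and 1. The part of such cells in the differences below was not tested. In whole muscle more cells of a type, more of the mark per cell and differing peak calls cannot be told apart in these sums.

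The pairs of highest density show the sequence range of these regions. Stretches of 200 bases around the centre of the overlap are given for 4 of the highest pairs, from the mm10 reference, plus strand, with CG dinucleotides in capitals. They run from Kmt5b with 17 CG pairs through Bcl6 with 3 and Zc3h4 with 2 to Mef2d with none.
Kmt5b, chr19:3768457-3768656: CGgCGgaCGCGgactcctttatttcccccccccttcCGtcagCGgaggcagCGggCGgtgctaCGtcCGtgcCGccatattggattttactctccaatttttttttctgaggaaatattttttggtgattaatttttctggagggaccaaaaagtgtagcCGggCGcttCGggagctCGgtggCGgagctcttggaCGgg
Zc3h4, chr7:16403054-16403253: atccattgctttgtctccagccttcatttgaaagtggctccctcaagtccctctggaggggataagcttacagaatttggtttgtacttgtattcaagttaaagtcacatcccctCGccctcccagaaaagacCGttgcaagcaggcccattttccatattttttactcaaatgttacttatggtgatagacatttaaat
Mef2d, chr3:88145005-88145204: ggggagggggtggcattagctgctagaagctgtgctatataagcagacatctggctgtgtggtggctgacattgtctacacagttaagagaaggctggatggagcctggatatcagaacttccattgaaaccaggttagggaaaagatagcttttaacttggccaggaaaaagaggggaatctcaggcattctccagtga
Bcl6, chr16:23986585-23986784: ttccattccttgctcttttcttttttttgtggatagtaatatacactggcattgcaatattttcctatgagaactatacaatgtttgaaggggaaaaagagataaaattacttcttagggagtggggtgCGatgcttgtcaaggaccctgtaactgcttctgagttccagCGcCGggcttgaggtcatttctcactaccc
The same stretches at Herpud1 and Zfand5 overlap exons in GENCODE by 142 and 97 bases and are not printed. Among counted pairs with at least 30 pooled tags in a group, the one with the largest decrease and the 2 with the largest increase in detrained mice are shown in the same way, now with capitals on matches to 5 muscle or exercise motifs searched on both strands.
Pgf (lower), chr12:85170292-85170491: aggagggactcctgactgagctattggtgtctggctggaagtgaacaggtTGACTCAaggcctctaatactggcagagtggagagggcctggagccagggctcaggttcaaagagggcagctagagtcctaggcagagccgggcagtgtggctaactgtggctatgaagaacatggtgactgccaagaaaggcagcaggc
Ercc1 (higher), chr7:19349275-19349474: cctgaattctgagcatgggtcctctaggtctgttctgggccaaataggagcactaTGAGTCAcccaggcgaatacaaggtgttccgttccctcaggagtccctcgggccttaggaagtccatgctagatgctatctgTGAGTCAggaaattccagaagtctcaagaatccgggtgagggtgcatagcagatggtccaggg
Spsb1 (higher), chr4:149954400-149954599: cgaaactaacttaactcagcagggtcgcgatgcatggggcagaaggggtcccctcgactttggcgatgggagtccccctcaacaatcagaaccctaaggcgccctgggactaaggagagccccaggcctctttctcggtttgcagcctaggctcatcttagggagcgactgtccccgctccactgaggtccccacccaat
The Pgf stretch holds 1 AP-1 sequence and the Ercc1 stretch 2. In windows of 1000 bases the AP-1 sequence occurred at 13% of pairs counted as lower and 19% of those counted as higher, beside 17.1% of all near-intron pairs. No motif was found in the 200 bases at Spsb1, which hold 9 CG pairs. A match is a description of the letters and not of binding.

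Near-intron peaks fell into those that touched the TSS and those that did not. In control mice the called interval of 3689 near-intron peaks (43.6%) reached the nearest TSS, and in detrained mice that of 3718 (50%). The reaching peaks were longer, with a median of 2966 bp in the control list, where the others had 1252 bp, and of 2856 bp in the detrained list, where they had 1564 bp. They also carried more signal, with a median pooled signal of 172 against 26.9 tags per 10000000 tags in control and 160 against 36.6 in detrained mice. Nearly all of them were centred in the first intron, 89.6% in control and 89.8% in detrained mice, against 58.2% and 58.7% of the peaks away from the TSS. The class thus held both peaks that extend over a TSS and peaks whose interval does not touch it, though some of the latter lie close to it.

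**Figure D1:**
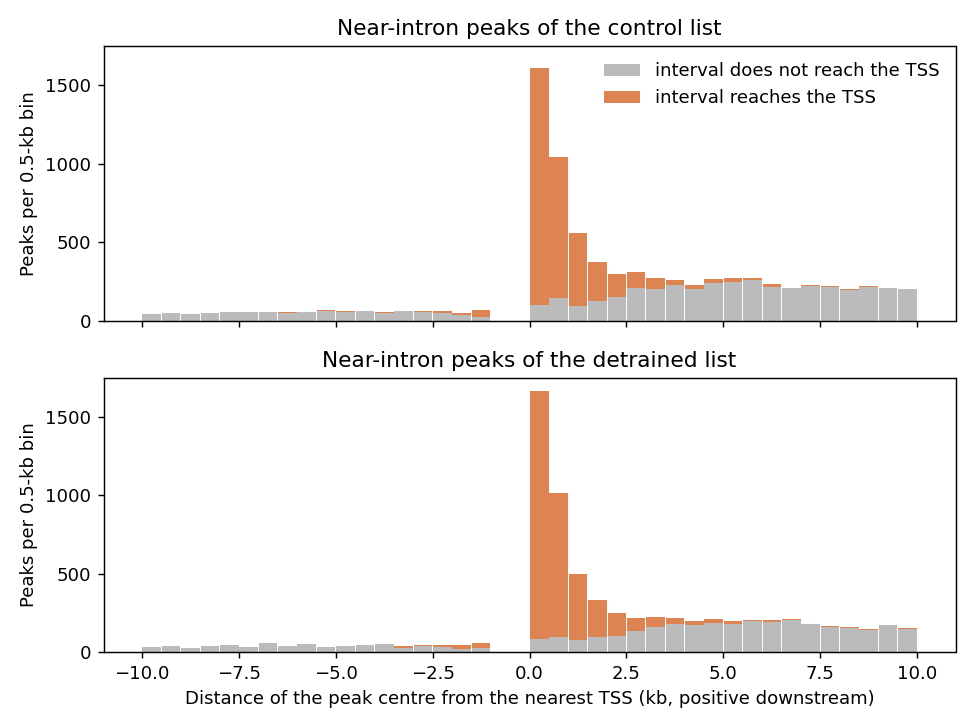
Number of near-intron peaks per 0.5-kb bin of distance between the peak centre and the nearest TSS, for the control list (top) and the detrained list (bottom). Orange bars are peaks whose interval reaches the TSS and grey bars the others; orange makes up most of the first bins downstream, and the last kb upstream is empty because the annotation assigns it to promoters.

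Over all near-intron peaks the centre lay in the first intron for 71.9% of control and 74.2% of detrained peaks, and in the second for 13.4% and 12.5%. Median distances to the TSS were 2738 bp (control list) and 2148 bp (detrained list), and 31.3% and 36.1% of peaks lay within 1 kb. Peaks upstream of the nearest TSS, which lie in an intron of another gene or of a longer transcript, made up 11.7% and 10.6%. The gene of the intron was the gene of the nearest TSS for 89.5% of 8435 control and 90.3% of 7417 detrained peaks with a transcript found in RefSeq (GRCm38.p6). The class covered 23.2 Mb in control and 22.6 Mb in detrained mice and held 25.9% and 25.8% of the tags in listed peaks. Protein-coding genes were nearest to 7623 of the control and 6733 of the detrained peaks.

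Base composition followed the same division. In 1000 bases around the centre of the overlap, near-intron pairs that reached the TSS held a median of 32.0 CG pairs, those away from it 12, distal-intron pairs (10 kb or more from a TSS) 11 and promoter pairs 63.0. A ratio of observed to expected CpG above 0.6, a common mark of CpG islands, was found in 38.6% of the reaching pairs, 2.59% of those away from the TSS, 0.647% of distal-intron pairs and 76.0% of promoter pairs. Pairs away from the TSS were thus nearer to distal introns than to promoters, and reaching pairs lay between distal introns and promoters.

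Muscle motifs were likewise counted in these 1000 bases on both strands, as shares with no test. The E-box CAGCTG occurred in 42.0% of reaching pairs, 52.0% of pairs away from the TSS, 52.0% of distal-intron pairs, 39.3% of promoter pairs and 48.4% of all shared pairs. MEF2 sites occurred in 11.1%, 18.2%, 20.3%, 6.53% and 14.8% of the same sets. The AP-1 sequence TGACTCA or TGAGTCA was present in 13.7%, 22.2%, 22.5%, 9.74% and 19.0%. In each of these the pairs away from the TSS were nearer to distal introns than to promoters, and the AT-rich MEF2 site was rarest where CG pairs were most frequent. The ERR sequence AAGGTCA was present in 18.4%, 23.2%, 22.6%, 12.9% and 19.4%, and the TEAD sequence CATTCC in 39.5%, 43.4%, 44.9%, 33.8% and 42.1%.

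Within each library H3K27ac was denser at near-intron than at distal-intron pairs, and among near-intron pairs it was denser at those that reached the TSS. Whether an interval reaches the TSS depends on its called length and so in part on the signal itself, so the values of the 2 kinds are a description. Density is given as tags per kb of peak per 10000000 tags of the library, shortened to tags per kb. The median over near-intron pairs was 43.6 and 45.6 tags per kb for C2 and C3 and 44.9 and 42.7 for Ex1 and Ex2. Over the 6800 distal-intron pairs it was 30.6, 33.0, 31.6 and 30.8 tags per kb, so every library was higher at near-intron pairs. The difference of log2 medians was 0.49 ± 0.02 (SD, n = 4 libraries), which corresponds to 1.40-fold. The exact permutation test over the signs of the 4 differences gave a two-sided p of 0.125, the smallest that 16 sign patterns allow. Near-intron pairs that reached the TSS had medians of 59, 60.9, 60.8 and 56.4 tags per kb, below promoter pairs at 67.4, 66.7, 68.4 and 63.0. Pairs away from the TSS had 29.4, 31.3, 29.8 and 29.2 tags per kb, 0.05 to 0.09 log2 units below distal-intron pairs in the same library.

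**Figure D2:**
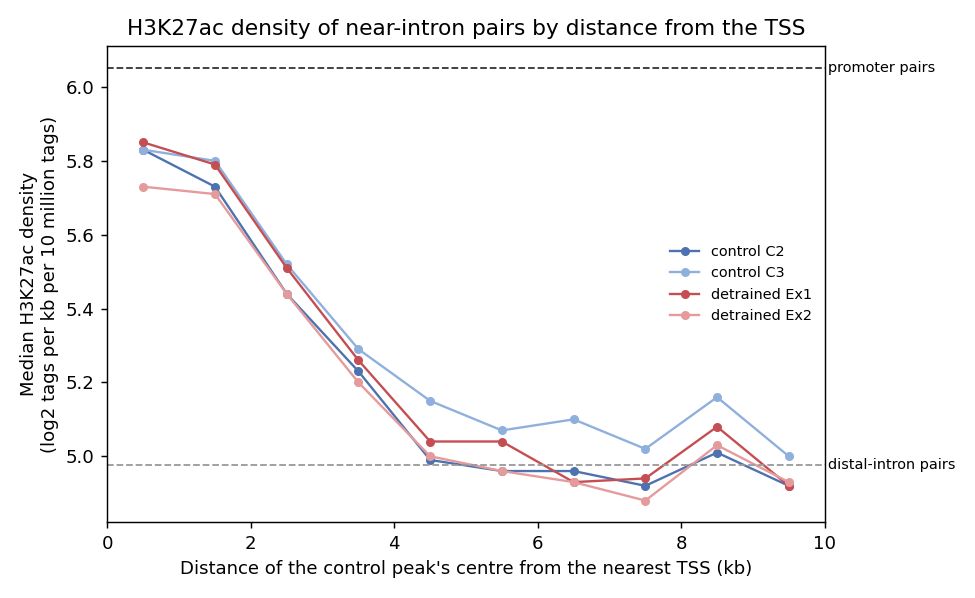
Median H3K27ac density of near-intron pairs (log2 tags per kb per 10000000 tags) in 1-kb bins of distance from the TSS; each line is 1 library, and dashed lines are the means over the 4 libraries of the medians of promoter and distal-intron pairs. All 4 libraries fall from near 5.8 at the TSS to the level of distal introns at 4 to 5 kb and remain near it.

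Density fell with distance in all 4 libraries. The 1547 pairs within 1 kb of the TSS had medians of 56.9 and 56.7 tags per kb in control and 57.6 and 52.9 in detrained libraries, and 94.8% of their control peaks reached the TSS. At 4 to 5 kb the medians were 31.8 and 35.4 against 32.8 and 32.0, and at 9 to 10 kb 30.4 and 32.1 against 30.4 and 30.4. On the log2 scale the median change per bin ranged only from -0.05 to -0.01. Nothing set the 10-kb limit apart in density. Over all pairs of 2 intron peaks, whether or not the detrained centre also lay within 10 kb, the 201 at 9 to 10 kb in the control list had medians of 30.8, 34.1, 31.0 and 30.7 tags per kb and the 202 at 10 to 11 kb had 30.4, 31.8, 31.1 and 29.2, in the order C2, C3, Ex1 and Ex2. Pairs in a first intron were denser, at 47.8, 49.7, 48.8 and 46.4 tags per kb, than pairs in later introns, at 33.6, 36.4, 34.4 and 32.8.

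Near-intron peaks found in 1 group only were weaker and shorter than those with a partner. A detrained near-intron peak was the partner of 49.8% of control members, and a control one that of 56.6% of detrained members. A further 875 control members (10.4%) were paired with a detrained peak of another class, of which 443 were promoters and 395 were in exons, UTRs or transcript ends. The same held for 914 detrained members (12.3%), with 473 control partners in promoters. In such pairs the 2 centres lay in differently annotated sequence, and the members had a median pooled signal of 144 and 122 tags per 10000000 tags. No peak of the other list overlapped 1938 control members (22.9%) and 1005 detrained members (13.5%), against 27.9% and 18% of all peaks of the lists. These unmatched members were short and weak, with a median length of 802 and 1040 bp and a median signal of 14.5 and 18.5 tags per 10000000 tags. The strongest of them in control mice lay 1446 bp from the TSS of Klhl8 (chr5:103908013-103911614, 208 tags), followed by Kcnj8, a subunit of ATP-sensitive potassium channels (chr6:142565817-142571081, 140 tags). In detrained mice they were at the cofactor Lbh (chr17:72924073-72927880, 115 tags) and at the chemerin receptor Cmklr1 (chr5:113633147-113637636, 106 tags).

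The comparison of detrained with control mice asks whether acetylation differed 72 h after the last run. As a class the near-intron pairs did not differ by more than the spread between libraries. The mean of the library medians was 44.6 ± 1.4 tags per kb in control and 43.8 ± 1.6 in detrained mice (SD, n = 2 each). The median log2 ratio of detrained to control was -0.029, with quartiles of -0.18 and 0.13, and the SD between libraries of a group was 0.049. Other shared pairs had a median of -0.025. Near-intron pairs exceeded the other shared pairs by 0.23 and 0.21 log2 units in the control libraries and by 0.23 and 0.20 in the detrained libraries, a difference between groups of -0.003. Reaching pairs and pairs away from the TSS had median log2 ratios of -0.027 and -0.035. Single pairs varied about this, with a median absolute difference of 0.16 between groups, beside 0.16 between the control libraries and 0.14 between the detrained libraries. The log2 values behind the library values were regularized within the table of each group, which can understate the spread within groups. The 2 tables were normalized separately, and 2 against 2 libraries cannot give an exact permutation p below 0.333, so no test between groups was made.

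A pair was counted as lower or higher in detrained mice when group mean densities were 1.5-fold or more apart and the values of the groups did not overlap. Values regularized within each group can separate more readily than raw counts would. Of 4210 near-intron pairs, 77 (1.83%) were lower and 42 (0.998%) were higher, beside 2.06% and 1.10% of all shared pairs. Scaled to tags inside called peaks, 51 were lower and 64 higher, so the balance turned. Counted by tags per peak, 227 were lower and 197 higher, and with an overlap of 80%, which leaves fewer pairs, only 9 and 3. Leaving out 1 library gave 144 lower pairs without C2, 125 lower without Ex1, 84 higher without C3 and 97 higher without Ex2. Shares of all shared pairs were not counted for these alternatives, so these counts have no background. With the fold left out, Ex1 and Ex2 were both under C2 and C3 at 27.8% of near-intron pairs and both over them at 20%, beside 27.2% and 21.3% of all shared pairs. By density, with the fold and without it, the shares at near-intron pairs were thus near the background in both directions. Just inside the fold, 18 counted pairs lay within 0.02 log2 units of it, and 26 separated pairs lay within 0.02 units outside it. Pairs away from the TSS were counted in 2.53% (lower) and 1.27% (higher) of cases, and reaching pairs in 1.27% and 0.719%.

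Most counted differences came with a different length of the called interval. The detrained peak was longer at 63 of the 77 lower pairs, with a median length ratio of 1.49, and shorter at 35 of the 42 higher pairs, with a median ratio of 0.707. Over all near-intron pairs it was longer at 2100 and shorter at 2100. Tags per peak, which are not divided by length, had a median of 0.912 times the control value at lower pairs and 1.15 times at higher pairs. Pooled tags were higher in detrained mice at 25 of the lower pairs and lower at 16 of the higher pairs. Across near-intron pairs, which share libraries and are not replicates, the log2 ratios of density and of length had a Spearman correlation of -0.54. That of tags per peak with length was 0.77. Density is divided by length and a longer interval collects more tags, so neither measure is free of called length. Among 1278 pairs whose lengths differed by at most 10%, 2 were lower (0.156%) and 3 higher (0.235%), beside 0.596% and 0.389% of shared pairs chosen in the same way. Density and tags per peak both passed the fold in the same direction at 17 lower and 9 higher pairs (0.404% and 0.214%), beside 0.462% and 0.257% of all shared pairs. The part of called length in the density differences was not tested.

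**Figure D3:**
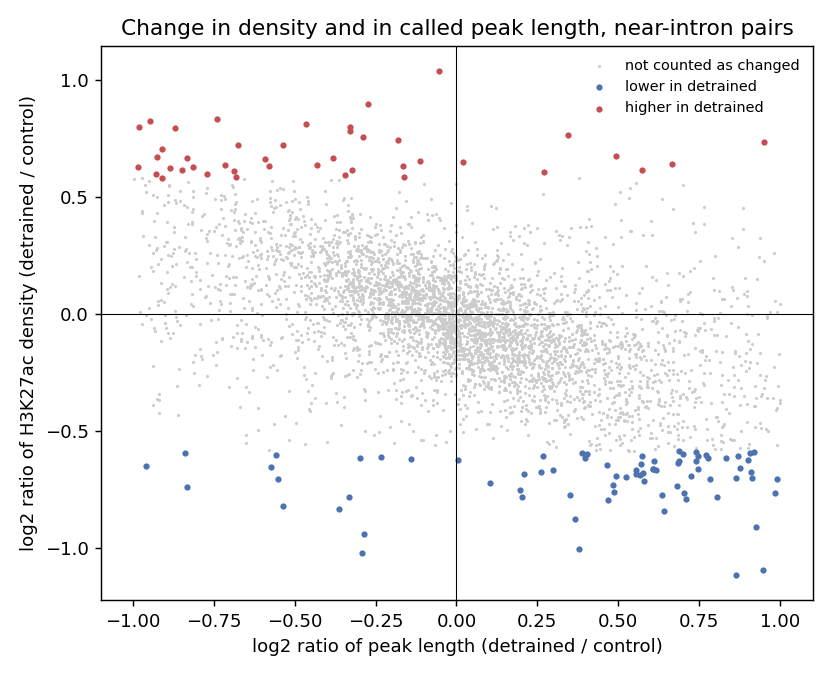
Each point is 1 of 4210 near-intron pairs; the horizontal axis is the log2 ratio of called peak length and the vertical axis the log2 ratio of H3K27ac density, both detrained over control. Blue points are the 77 pairs counted as lower and red points the 42 counted as higher; blue lies mainly to the right of 0 and red mainly to the left.

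The 10 densest near-intron pairs all reached a TSS. Kmt5b, a histone H4 lysine methyltransferase, had 192 and 216 tags per kb in the control libraries and 158 and 143 in the detrained libraries. Its groups did not overlap and its log2 ratio was -0.44, below the fold, while the called peak measured 2632 against 3665 bp and pooled tags were 536 and 550. Herpud1, a component of the degradation machinery of the endoplasmic reticulum, had 151 and 169 tags per kb against 194 and 183. Here the detrained libraries were the higher ones, with a log2 ratio of 0.24, while pooled tags were 624 and 615.

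Mef2d, a transcription factor of muscle genes, carried a 16564-bp domain in control and a 17788-bp domain in detrained mice (chr3:88136822-88153386 in control). It had 157 and 189 tags per kb in control and 164 and 149 in detrained libraries, so the groups overlapped. Bcl6, a transcriptional repressor, had a domain of 20325 and 18529 bp with 142 and 161 against 147 and 160 tags per kb. Again the groups overlapped, with a log2 ratio of 0.02. Zc3h4, a zinc-finger protein that restrains non-coding transcription, had 155 and 175 against 170 and 161 tags per kb. Zfand5, a ubiquitin-binding protein of the proteasome, had 147 and 172 against 162 and 149. Both overlapped between groups.

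The zinc-finger gene Zfp236 had 169 and 161 tags per kb in control and 179 and 171 in detrained libraries. Hlcs, which attaches biotin to carboxylases, had 141 and 144 against 158 and 158. Detrained libraries were above control ones at both genes, with log2 ratios of 0.09 and 0.15, though pooled tags at Hlcs were 501 and 477. Acyp2, the muscle acylphosphatase, had 137 and 161 against 156 and 146 tags per kb. Unk, an RNA-binding zinc-finger protein, had 126 and 148 against 170 and 156. Values overlapped at Acyp2 and not at Unk, whose log2 ratio was 0.25 and whose pooled tags were 404 and 372.

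**Figure D4:**
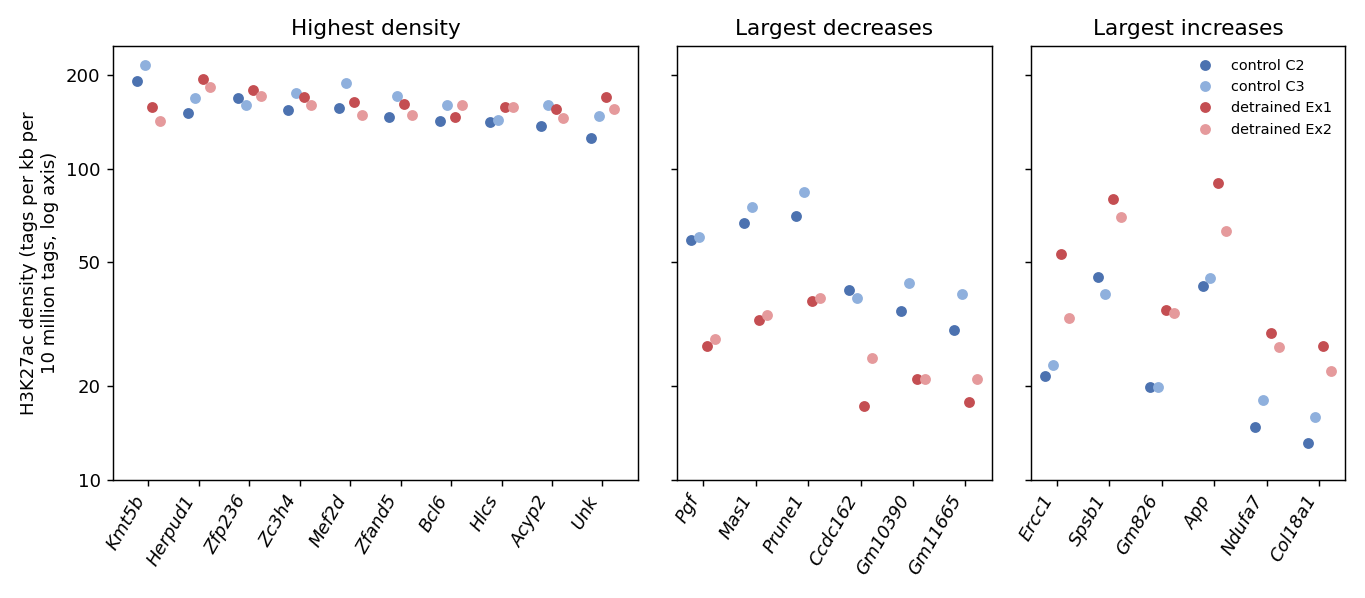
H3K27ac density (tags per kb per 10000000 tags, log axis) at the 10 densest near-intron pairs, the 6 with the largest decrease and the 6 with the largest increase; each point is 1 library, blue for control and red for detrained. The densest pairs lie between 126 and 216 tags per kb, where the groups overlap at Zc3h4, Mef2d, Zfand5, Bcl6 and Acyp2; the pairs with the largest decreases and increases were chosen for their separation.

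The largest decreases, also with at least 30 pooled tags in a group, were chosen for their size, so their values are a description. Pgf, placental growth factor of the VEGF family, had 59.2 and 60.3 tags per kb in control and 26.8 and 28.4 in detrained libraries at a peak in intron 4 of 6, 5594 bp from the TSS. The log2 ratio was -1.11, the lowest of the class. The interval measured 1913 bp against 3481 bp, and pooled tags were 114 and 95.9, so the log2 ratio by tags per peak was -0.25. Mas1, a receptor of the renin-angiotensin system, behaved alike, with 66.7 and 75.4 against 32.5 and 33.9 tags per kb, a length of 2132 and 4110 bp and pooled tags of 151 and 136. Its log2 ratio was -1.09 by density and -0.15 by tags per peak.

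Prune1 and Ccdc162 were lower on both measures. At Prune1, a polyphosphatase (chr3:95271971-95284981), density was 70.3 and 84.1 tags per kb in control and 37.4 and 38.4 in detrained libraries. Pooled tags were 1003 in control and 402 in detrained mice, over 13010 and 10621 bp. At Ccdc162, a coiled-coil gene (chr10:41708379-41712328, intron 1 of 47), density was 40.7 and 38.3 against 17.3 and 24.6 tags per kb, and pooled tags were 156 and 67.9. The 2 remaining pairs were weaker. Gm10390, where the peak lies in intron 13 of 23 of Rbm19, had 34.8 and 42.9 against 21 and 21.1 tags per kb, and Gm11665 had 30.2 and 39.6 against 17.7 and 21. Gm11665 reached 30 pooled tags in control mice only.

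Among increases with at least 30 pooled tags in a group, Ercc1, a subunit of a DNA repair endonuclease, led with 21.6 and 23.3 tags per kb in control and 53.0 and 33.0 in detrained libraries. The detrained libraries were both higher but far apart, the log2 ratio was 0.90, and pooled tags were 61.3 and 96.4. Spsb1, an adaptor of ubiquitin ligases, had 45.0 and 39.4 against 79.8 and 70.1 tags per kb. App, the amyloid precursor protein, had 42.0 and 44.4 against 90.2 and 62.9. At both genes pooled tags were lower in detrained mice (134 and 123 at Spsb1, 163 and 146 at App). The intervals shrank from 3169 to 1643 bp and from 3785 to 1917 bp. By tags per peak the direction turned (log2 ratios -0.12 and -0.18).

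Ndufa7, a subunit of respiratory complex I, had 14.8 and 18 tags per kb in control and 29.6 and 26.6 in detrained libraries. Col18a1, the collagen from which endostatin is cut, had 13.1 and 15.9 against 26.8 and 22.4 at a peak in intron 2 of 41, at -7760 bp from the nearest TSS. Gm826 had 19.8 and 19.8 against 35.2 and 34.4. All 3 were also higher in pooled tags, which were 47.5 and 64.9 at Ndufa7, 20.1 and 43.6 at Col18a1 and 54.1 and 68.8 at Gm826. Col18a1 reached 30 pooled tags in detrained mice only, so its pooled tags are no separate support.

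The pairs that passed the fold on both measures were singled out after their values were seen. Besides Prune1 and Ccdc162, lower pairs with high pooled signal were at Adk, adenosine kinase, with 59.6 and 68.0 against 35.7 and 36.4 tags per kb, and at Sypl, a synaptophysin-like membrane protein, with 70.6 and 88.2 against 49.8 and 45.0. Pooled tags were 545 and 213 at Adk and 666 and 223 at Sypl. In both, and in Prune1 and Osbpl9, 1 of the 2 called intervals reached the TSS and the other did not, so the lists cut the domain in different places. Of the 17 lower pairs 12 lay away from the TSS in both lists. One of these was Pfkfb3, whose product makes an activator of glycolysis, with 29.3 and 31.2 against 17.2 and 21.5 tags per kb at -7876 bp from the nearest TSS.

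On the higher side, Stard7, a phosphatidylcholine transfer protein of mitochondria, had 45.5 and 59 tags per kb in control and 91.5 and 81.5 in detrained libraries. Crat, carnitine acetyltransferase, which buffers acetyl-CoA in muscle mitochondria, had 33.6 and 40 against 59 and 57.9 at chr2:30405995-30412875. Tbc1d22a had 27.7 and 33.7 against 50.1 and 43.9. Pooled tags were 237 and 759 at Stard7, 252 and 565 at Crat and 164 and 373 at Tbc1d22a, and at each of them 1 of the 2 intervals reached the TSS.

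The other higher pairs lay away from the TSS. Notch1, the receptor that keeps satellite cells quiescent, had 16.9 and 18.9 tags per kb in control and 30.8 and 24.2 in detrained libraries in intron 2 of 33. Igfn1, a protein of the muscle Z-disc, had 13.5 and 22.4 against 31.5 and 23.7, and C3 was close to Ex2. The predicted gene Gm128 had the largest increase of the class, with 12.6 and 19.0 against 34.0 and 29.8 tags per kb and pooled tags of 14.3 and 28.0, too weak for the rule of 30 pooled tags.

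Gene groups of muscle physiology, chosen with earlier results of these data known, are described by counts and by the median log2 ratio of density. For the class as a whole 1.83% of pairs were lower and 0.998% higher, with a median of -0.03. Of 45 sarcomere genes, 23 had 25 near-intron pairs, of which 1 was lower and none higher, with a median of -0.08. The densest were Tpm2, the beta chain of tropomyosin, with 111 and 139 tags per kb in control and 123 and 113 in detrained libraries, and Myl1, a fast myosin light chain, with 105 and 149 against 109 and 99.1. Xirp2, an actin-binding protein of the Z-disc and intercalated discs, had 86.7 and 109 against 92.0 and 84.3. Values overlapped between groups at all 3. The lower pair was at Sgca, alpha-sarcoglycan, with 93.6 and 110 against 69.4 and 65.6 tags per kb, where the interval grew from 5010 to 8366 bp and pooled tags from 509 to 564.

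Of 28 excitation-contraction genes, 16 had 18 pairs, with 1 lower, none higher and a median of -0.10. Atp2a1, the calcium pump of fast fibres, had 95.4 and 124 tags per kb in control and 136 and 131 in detrained libraries over a domain of 15521 and 12790 bp. Its detrained libraries were both higher (log2 ratio 0.29). Pooled tags at Atp2a1 were 1700 and 1704, and its log2 ratio was 0.01 by tags per peak. Trdn, which anchors calsequestrin at the junction, had 86.7 and 114 against 96.1 and 87.2, with overlap. Jsrp1, a junctional protein of the same complex, was the lower pair with 104 and 124 against 71.7 and 62.8 tags per kb. At Jsrp1 the interval was 2735 and 4455 bp long and pooled tags were 312 and 298.

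Muscle transcription regulators were represented by 18 of 43 genes and 26 pairs, with 1 lower, 1 higher and a median of -0.06. Besides Mef2d, the densest were Rxra, the retinoid X receptor, with 112 and 132 tags per kb in control and 76.0 and 73.6 in detrained libraries, and Nfix, which controls the fetal to adult muscle programme, with 109 and 111 against 82.7 and 77.9. Both were lower in both detrained libraries. At Nfix the log2 ratio was -0.45 by density and -0.15 by tags per peak. Rxra passed the fold. Its interval nearly doubled from 7132 to 13440 bp, and pooled tags were not lower in detrained mice, so the log2 ratio was -0.70 by density and 0.21 by tags per peak. The higher pair was at Tead4, a TEAD factor of myoblasts, with 29.2 and 32.5 against 54.3 and 42.0 tags per kb and pooled tags of 77.2 and 80.4. The coactivator Ppargc1a had 2 pairs, at log2 ratios of 0.089 and -0.073.

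**Figure D5:**
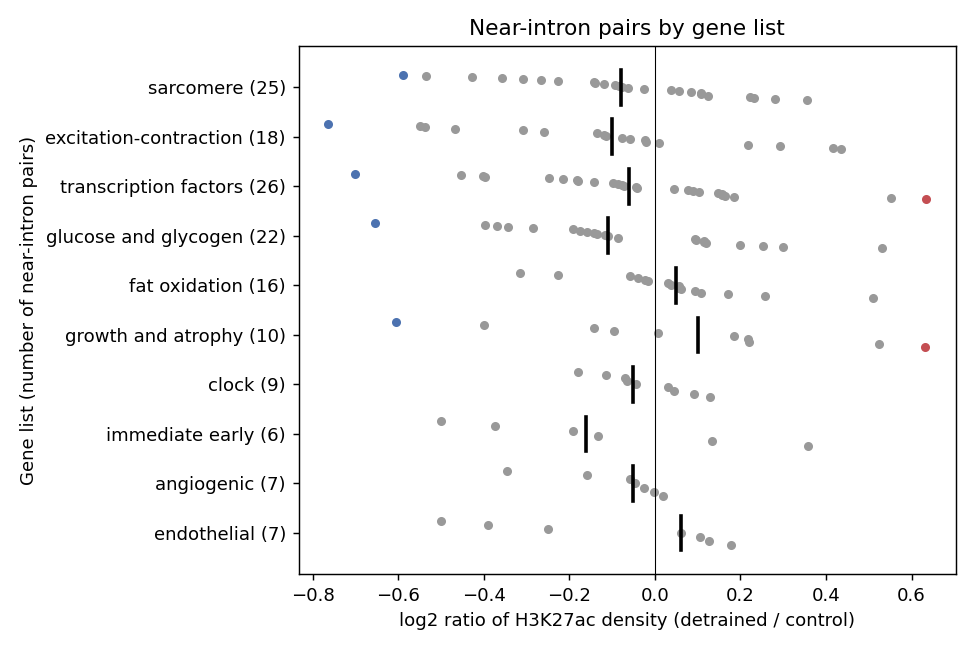
Log2 ratio of H3K27ac density (detrained over control) for each near-intron pair of 10 gene lists, with the number of pairs in brackets; black bars are list medians, blue and red points are pairs counted as lower and higher. List medians lie between -0.16 and 0.10.

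Glucose and glycogen genes had 22 pairs at 16 of 31 genes, with 1 lower, none higher and a median of -0.11. Gbe1, the glycogen branching enzyme, had 120 and 142 tags per kb in control and 102 and 104 in detrained libraries. Pfkm, muscle phosphofructokinase, had 82.5 and 121 against 116 and 114, and Gapdh 96.9 and 121 against 107 and 97.7. Only Gbe1 of these separated the groups, with a log2 ratio of -0.34. Its interval grew from 3253 to 3925 bp and pooled tags were 425 and 404, so the log2 ratio was -0.07 by tags per peak. The lower pair was that of Pfkfb3 given above, 1 of 3 pairs at the gene, whose other ratios were -0.143 and -0.285.

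Fat oxidation genes had 16 pairs at 13 of 29 genes, none of them counted, with a median of 0.05. Cs, citrate synthase, had 88.1 and 96.6 tags per kb in control and 111 and 97.4 in detrained libraries, so C3 and Ex2 nearly met, and pooled tags were 598 and 526. Lpl, lipoprotein lipase, had 89.0 and 95.7 against 89.2 and 90.3, and Vldlr, its lipoprotein receptor, 73.2 and 94.9 against 87.6 and 82.6. The widest ratio of the list was at Slc25a20, the mitochondrial carnitine-acylcarnitine carrier, at 0.51, under the fold.

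Growth and atrophy genes had 10 pairs at 9 of 21 genes, 1 lower and 1 higher, with a median of 0.10. Foxo3, a driver of atrophy genes, had 93.4 and 94.7 tags per kb in control and 109 and 105 in detrained libraries. Ulk1, an autophagy kinase, had 76.5 and 93.2 against 103 and 93.5, and Klf15, a glucocorticoid target, 81.1 and 87.7 against 100 and 95.8. Detrained libraries were above control ones at all 3, by 0.18 to 0.22 log2 units, with C3 and Ex2 nearly equal at Ulk1. The Ulk1 interval shrank from 5018 to 3776 bp and pooled tags were 425 and 371, so its direction turned by tags per peak (-0.19). The higher pair was at Map1lc3b, the LC3 protein of autophagosomes, with 54.0 and 58.1 against 86.0 and 87.6 tags per kb, and the lower one at Trim54, a sarcomeric ubiquitin ligase of the MuRF family, with 93.4 and 122 against 72.4 and 68.2. Pooled tags were 178 and 157 at Map1lc3b and 446 and 434 at Trim54.

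Clock genes had 9 pairs at 8 of 19 genes, none counted, with log2 ratios from -0.18 to 0.13. Nr1d2, a repressor of the clock loop, had 98.3 and 113 tags per kb in control and 115 and 101 in detrained libraries. Nfil3 had 84.6 and 98.9 against 96.6 and 98.3, and Rora 85.0 and 92.0 against 79.2 and 90.0. Values overlapped at all 3. Immediate early genes had 6 pairs at 5 of 20 genes, none counted, with a median of -0.16. Klf6 had 130 and 134 against 97.6 and 89.1 tags per kb with an interval that grew from 6881 to 13407 bp and pooled tags of 907 and 1249, so its log2 ratio was -0.50 by density and 0.46 by tags per peak. Mafk had 122 and 137 against 122 and 114, and Klf4 had 83.0 and 73.6 against 76.0 and 61.6.

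Angiogenic genes had 7 pairs at 7 of 13 genes, none counted, with a median of -0.05. Vegfa, the main growth factor of muscle capillaries, had 110 and 139 tags per kb in control and 122 and 115 in detrained libraries. Epas1, a hypoxia-inducible factor, had 99.6 and 116 against 114 and 104, and Fgfr1 77.0 and 66.6 against 57.1 and 55.7. Vegfa and Epas1 overlapped between groups, while Fgfr1 was lower in both detrained libraries at a log2 ratio of -0.34. The Fgfr1 interval grew from 4352 to 6438 bp and pooled tags were 313 and 363, so the direction turned by tags per peak (0.22). Pgf, described above, was not on this list.

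Near-intron pairs at markers of other cells were few. Endothelial genes had 7 pairs at 4 of 9 genes, none counted, with log2 ratios from -0.50 to 0.18 and a median of 0.06. The lowest were the 2 pairs of Kdr, the main VEGF receptor, at -0.500 and -0.391, named after their values were seen. Tek was at 44.8 and 46.2 tags per kb in control and 50.4 and 49.0 in detrained libraries, Erg at 34.9 and 51.5 against 57.9 and 36.0, and Flt1 at 31.4 and 43.8 against 38.9 and 25. At Tek pooled tags were 238 and 208, so its direction turned (0.13 by density and -0.19 by tags per peak). Immune genes had pairs at Csf1r and Mrc1, with 20.8 to 27.8 and 19.8 to 24.6 tags per kb over the 4 libraries. Acta2, the smooth muscle actin, had 21.9 and 20.8 against 28.9 and 26.9, with pooled tags of 68.3 and 62.3 that turned the direction (log2 ratio 0.38 by density and -0.13 by tags per peak). Pax7, the satellite cell factor, had 18.8 and 18 against 19.4 and 20.2. Fibroblast, adipocyte and Schwann cell genes and those of other tissues had no near-intron pair. Of the 10 muscle fibre markers, 5 had a pair and none was counted, Ckm at 81.8 and 106 against 107 and 103 and Ttn at 66.4 and 93.7 against 84.0 and 86.0 among them.

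Some genes held several near-intron pairs. Of 3629 genes with a pair, 3133 had 1. Tmcc3, a coiled-coil protein of the endoplasmic reticulum, had 6, and Rbfox2, Foxp1 and Arhgef3 had 5 each, followed by 8 genes with 4, of which Pkig held the densest pair. At Tmcc3 the pair nearest a TSS had 65.5 and 76.1 tags per kb in control and 115 and 99.0 in detrained libraries and was counted as higher. Its interval shrank from 3791 to 2221 bp and pooled tags were 268 and 237, so the log2 ratio was 0.60 by density and -0.17 by tags per peak. The other 5 pairs had log2 ratios of density from -0.29 to 0.23. At Rbfox2, a splicing regulator of muscle, log2 ratios ran from -0.30 to 0.02, and at Foxp1, a forkhead repressor, from -0.48 to 0.53. Arhgef3, a guanine nucleotide exchange factor, ranged from -0.20 to 0.47 and Pkig, an inhibitor of protein kinase A, from -0.29 to 0.33. None of those at Rbfox2, Foxp1, Arhgef3 and Pkig was counted.

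The 3 longest near-intron peaks of control mice each spanned more than 30 kb. Nfix carried 33683 bp (chr8:84762802-84796485) with 65.2 and 67.3 tags per kb in control and 60.2 and 64.8 in detrained libraries, where the domain was 31646 bp long. Smtnl2, a smoothelin-like muscle protein, carried 33182 bp (chr11:72386790-72419972) with 56.9 and 73.9 against 60.7 and 53.3 tags per kb. The third, 32027 bp annotated to Mir196a-2 within the Hoxc cluster (chr15:102954258-102986285), held 91.8 pooled tags per kb in control mice. In detrained mice the same stretch was overlapped by 4 separate peaks, none of which formed a pair, so this locus enters no comparison of pairs.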

How the data were processed

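The authors aligned the reads to mm10 with Bowtie (1.2 in the submitters' processing notes), kept 1 tag per position, and called peaks with HOMER from both H3K27ac libraries of a group against its input. The deposited signal is the tags of both libraries in a peak per 10000000 tags. For each library the deposited tables give log2 values that were regularized within the table. The deposited columns of fold over input and its p-values were not used. Control columns C2 and C3 were assigned to the group only, since the labels number these libraries otherwise.

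Pooled tags were shared between libraries in proportion to the library total and 2 to the power of the log2 value. Density was (tags + 0.5) per kb of peak per 10000000 tags. Motifs were searched and sequences read in GRCm38.p6, and results for some items are not reported here. Distal-intron pairs were intron pairs 10 kb or more from a TSS.

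By rule the genes named were the 10 densest pairs, and the 6 largest increases and 6 largest decreases with 30 pooled tags in a group. The rules also took the 3 densest genes of each list, the 5 genes with most pairs and the 3 longest control members. Other genes are said to be chosen after their values were seen. Counted pairs of the lists, the strongest unmatched peaks and the pairs at Slc25a20 and Ppargc1a were also named outside the rules. The members, rules and lists were chosen with earlier results of these data known. Python 3.11.15, pandas 2.3.3, numpy 2.4.6, scipy 1.17.1, pysam 0.24.0 and matplotlib 3.10.9 were used, and the steps were tested on simulated data. Depth per library was 20805019 to 22400894 tags, and 124 of the 4210 pairs had under 20 pooled tags per 10000000 tags in both groups. The labels give the input libraries other strain names than the H3K27ac libraries.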

Additional observations from a re-analysis of the deposited data

How the results depend on the processing

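The median log2 ratio of near-intron pairs was -0.029 and moved beyond the spread between libraries only when scaled to tags inside called peaks (0.022). Its difference from other shared peaks moved with tags per peak (-0.030). The 77 lower and 42 higher pairs became 227 and 197 with tags per peak, 51 and 64 with scaling to called peaks, 48 and 26 with only peaks 4-fold over the input, 9 and 3 with 80% overlap, 125 and 67 with at least 1 peak a member, and 4 and 1 at 2-fold. With a distance under 5 kb, 51 were lower and 29 higher. Shares of all shared pairs were not counted for these settings or with 1 library left out, and some settings keep fewer pairs. Chosen after seeing the data, both measures together gave 17 and 9, and lengths within 10% gave 2 and 3. Leaving out 1 library gave 87 to 144 lower and 35 to 97 higher pairs; without C2, 144 were lower, without C3, 84 were higher, without Ex1, 125 were lower, and without Ex2, 97 were higher. The shares of 49.8% and 56.6% with a partner became 52.9% and 62.0% with the stricter peaks and 25.7% and 29.2% with 80% overlap, 53.0% and 57.6% under 5 kb, and 50.8% and 57.7% with any overlap. The excess over distal introns (0.49) reversed to -0.08 with only pairs away from the TSS, also chosen after seeing the data. Tags per peak turned the direction of the counted pairs at Spsb1 (-0.12), App (-0.18), Rxra (0.21), Sgca (0.15), Map1lc3b (-0.18) and Tmcc3 (-0.17), among others. Of 567 values of 57 pairs named by rule, 521 stayed within the spread between libraries and 43 moved, all but 10 of them with tags per peak. The other 3, at counted pairs, reversed. A change of sign at a pair not counted, as at Klf6 (-0.50 by density, 0.46 by tags per peak), was not labelled as reversed. Sgca, Map1lc3b and Tmcc3 were not among the 57 pairs. Keeping repeats gave no other value, since none were marked. Leaving out pairs centred in masked sequence, chosen after seeing the data, gave 68 lower and 38 higher pairs, a median of -0.027 and an excess over distal introns of 0.51. No paired analysis was possible because columns C2 and C3 could not be matched to the replicate numbers in the labels, and no source links animals across groups.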
